A study of Mus musculus with 4 samples.

Results

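The Oas family, Rsad2 and Cmpk2 are antiviral effector genes that cells switch on when they respond to interferon. Their RNA was examined in immune cells from mouse melanomas, as a listed set of 8 genes (Oas1a, Oas1g, Oas2, Oas3, Oasl1, Oasl2, Rsad2 and Cmpk2) out of the 32285 genes counted. All 8 were found in the count matrix and all were detected. The tumours were YUMM1.7OVA melanomas, a mouse line that carries Braf V600E, lacks Cdkn2a and was made to express ovalbumin. They grew in Rag2-/- mice, which have no T or B cells of their own. OT-1 CD8+ T cells, which recognise an ovalbumin peptide, were given on day 7, and tumours were taken on day 10, 72 h later. Live CD45+ cells were then sorted for droplet sequencing that tags the 3' ends of transcripts.

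There were 4 samples, 1 per group. NTT came from clone 3A6, which had never met targeted therapy, and RTT from clone 2B12, which was resistant to it. Resistant lines were kept in the BRAF inhibitor dabrafenib in culture. RTT_ROSA26 was the resistant line with a control guide against the Rosa26 locus, and RTT_PTGS12KO was the resistant line lacking Ptgs1 and Ptgs2. Each line thus stands for 1 clone or 1 edited line, and the knockout was made in the cancer cells, which the sort does not collect. Per the labels 1 tumour was used per condition, whereas the study's legends describe pooled tumours, and which applies here was not settled.

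OAS enzymes bind double-stranded RNA and make short 2'-5'-linked oligoadenylates, a second messenger of the antiviral response. Oasl1 and Oasl2 encode OAS-like proteins with ubiquitin-like domains, and mouse Oasl1 is known to restrain translation of Irf7. Rsad2 encodes viperin, which turns CTP into the chain terminator ddhCTP, and its neighbour Cmpk2 encodes a mitochondrial nucleotide kinase that feeds the CTP pool. Interferon receptors drive such genes through ISGF3, a complex that includes Stat2 and Irf9 and binds an element named the ISRE. In tumours, monocytes and macrophages are cells in which this programme is commonly seen.

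The genes lie in 3 small clusters of the mouse genome (GRCm38, GENCODE M21). On chromosome 5, Oasl2 (114896936 to 114912234, plus strand) and Oasl1 (114923240 to 114937915, plus strand) are 11005 bases apart. Further along the same chromosome are Oas2 (120730333 to 120749853), Oas3 (120753098 to 120777661), Oas1g (120876142 to 120887613) and Oas1a (120896256 to 120907521), all on the minus strand. On chromosome 12, Rsad2 (26442746 to 26456452, minus strand) and Cmpk2 (26469204 to 26479837, plus strand) point away from each other across 12751 bases. All 8 are annotated as protein coding.

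The promoters are shown because the 8 genes were high or low in much the same cells, and an ISRE is the shared element such genes are known for. RefSeq promoters of GRCm38.p6 were found for 7 of the 8 genes, all but Oas2. The letters GAAANNGAAA, the core of an ISRE, were searched on both strands of the 250 bases before each start site, and overlapping matches were counted. They were present in 4 of the 7 (Oas1a, Oas1g, Oas3 and Rsad2), against 978 of 32851 promoters or 2.98% over all genes. With the last base left free, 4 of the 7 matched, against 7.13%. Of 3 promoters found for other Oas1 genes, 1 matched, that of Oas1c. The motif was chosen after the promoters had been seen, and a match is only a match of letters. Sequences run 5' to 3' on the strand of the gene and end at the base before the start site, with the matching bases in capitals.
Oas1a, chr5:120907526-120907645, minus strand: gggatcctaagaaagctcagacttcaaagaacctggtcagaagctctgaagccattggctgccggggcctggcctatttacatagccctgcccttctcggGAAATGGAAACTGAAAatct
Oas1g, chr5:120887614-120887733, minus strand: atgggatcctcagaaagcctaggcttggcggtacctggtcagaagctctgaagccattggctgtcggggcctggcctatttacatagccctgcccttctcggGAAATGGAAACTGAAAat
Oas3, chr5:120777660-120777779, minus strand: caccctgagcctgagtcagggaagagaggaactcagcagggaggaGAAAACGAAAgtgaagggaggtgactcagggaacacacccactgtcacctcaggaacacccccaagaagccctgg
Rsad2, chr12:26456453-26456602, minus strand: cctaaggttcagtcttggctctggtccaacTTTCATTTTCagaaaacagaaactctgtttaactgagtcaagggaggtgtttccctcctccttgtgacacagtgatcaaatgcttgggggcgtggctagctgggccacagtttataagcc

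Oas1a and Oas1g carried the same pair of overlapping matches, beginning 20 and 18 bases before their start sites, and 82.8% of their aligned promoter bases were identical. The Oas3 match began 75 bases before the start, and the Rsad2 match lay on the opposite strand, 120 bases before it. Oasl1, Oasl2 and Cmpk2 held no match in this window. Likeness extends to the 3' ends, where the counted tags come from. Of 411 windows of 90 bases in the last 500 transcript bases, 42.3% for Oas1a and 13.9% for Oas1g occurred whole in another transcript of the family, so counts of this pair are uncertain. The share was 0 for the other 6 genes.

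The samples held 6836 to 10296 cells each, 33368 in all, with total UMIs (unique molecular identifiers, 1 per captured transcript) of 69332486 to 146829369. Median UMIs per cell were lowest in NTT, at 7293, and between 12219 and 13280 in the resistant samples. The authors' 17 cell type names were used. Each marker list of a named cell type stood highest in that type, and melanoma markers summed to at most 0.361 CPM (UMIs per 1000000 UMIs of the summed cells). The 4 samples were pooled and loaded 3 times, so free RNA was common to them. Of the barcode sequences, 98 occurred in more than 1 load, 75 of them in more than 1 sample, and 0 were shared by samples within a load. With 1 sample per group no test was possible. Levels are in CPM, and bracketed or "to" ranges are exact 95% intervals for counting error only, not for variation between tumours. In a whole sample, fewer cells of a type and less RNA per cell cannot be told apart.

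Across all sorted cells, each of the 8 genes was highest in NTT and second highest in RTT_PTGS12KO, and RTT and RTT_ROSA26 had the lowest levels. Rsad2, viperin, stood at 238 CPM in NTT, at 28.5 in RTT, at 20.4 in RTT_ROSA26 and at 80.2 in RTT_PTGS12KO. Oasl1, the restrainer of Irf7, was measured in that order at 107, 6.74, 5.45 and 23.7 CPM. Oas1a, an RNA-sensing synthetase, stood at 91.0, 20.0, 19.1 and 37.7 CPM, a narrower range. Oas3, the largest of the synthetases, stood at 75.9, 5.74, 3.33 and 20.3 CPM.

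NTT exceeded RTT by at least 2-fold for 8 of 8 genes, against 6.72% of the 7054 genes with a mean of at least 10 CPM. Shares of genes called, here and further on, are over genes at that minimum, while all 8 genes are counted whether they reach it or not. The median log2 ratio of the 8 was 2.82, beside -0.11 over all those genes. Oasl1 had the highest ratio at 3.99 [3.89 to 4.10] and Oas1a the lowest at 2.19 [2.12 to 2.26]. RTT_PTGS12KO exceeded RTT_ROSA26 by at least 2-fold for 6 of 8, against 4.2% of genes, with a median of 1.98 beside -0.12. The 2 genes below that line were the sister pair Oas1a at 0.98 [0.91 to 1.06] and Oas1g at 0.88 [0.73 to 1.04], and the highest was Oas3 at 2.61 [2.45 to 2.77]. RTT_ROSA26 against RTT, a comparison of unedited Ptgs1 and Ptgs2 on both sides, gave 0 of 8 in either direction, against 0.525% higher and 1.26% lower, with a median of -0.39. There Oas1a, Oas1g and Oas2 had intervals that include 0, while Oas3 was at -0.79 [-0.97 to -0.60]. The 3 comparisons share libraries, so their values are set side by side and not correlated.

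The samples differed widely in their cells, and the 8 genes are not evenly spread over cell types. Monocytes made up 80.1% of NTT cells and 39.0% of RTT_PTGS12KO cells, but 6.55% in RTT and 2.11% in RTT_ROSA26. In the order NTT, RTT, RTT_ROSA26 and RTT_PTGS12KO, monocytes held 87.7%, 29.5%, 13.8% and 55.2% of the UMIs of the 8 genes. Macrophages made up, in that order, 3.73%, 84.5%, 87.7% and 50.6% of cells and held 4.15%, 56.9%, 69.0% and 35.1% of those UMIs. Infl_Mono, the monocyte cluster the authors named inflammatory, held far more than its share of cells. It was 1.73% of RTT cells with 22.0% of the UMIs of the 8 genes, 1.26% of RTT_ROSA26 with 12.1%, 6.17% of RTT_PTGS12KO with 18.5% and 19.6% of NTT with 39.8%. Neutrophils held more than their share too, with 1.83% of cells and 7.41% of these UMIs in RTT. Types were also weighted equally, by averaging CPM over the types of at least 50 cells in both samples before the ratio was taken. Types with high levels still count most in such a mean. Over the genes with at least 10 CPM, the median log2 ratio went from 2.87 to 1.00 for NTT against RTT. For the knockout it went from 1.98 to 0.42. TAM_C1q and TAM_Spp1, with 12 and 20 cells in NTT, were left out of NTT against RTT. Within the types used there, medians of the 8 genes were 0.62 in Infl_Mono, 1.14 in neutrophils and 1.25 in TAM_H2Ab1. They were 1.36 in Monocyte_1, 2.21 in TAM_cycling and 2.31 in cDC2s. The part of cell make-up in the fall was not tested.

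**Figure D1:**
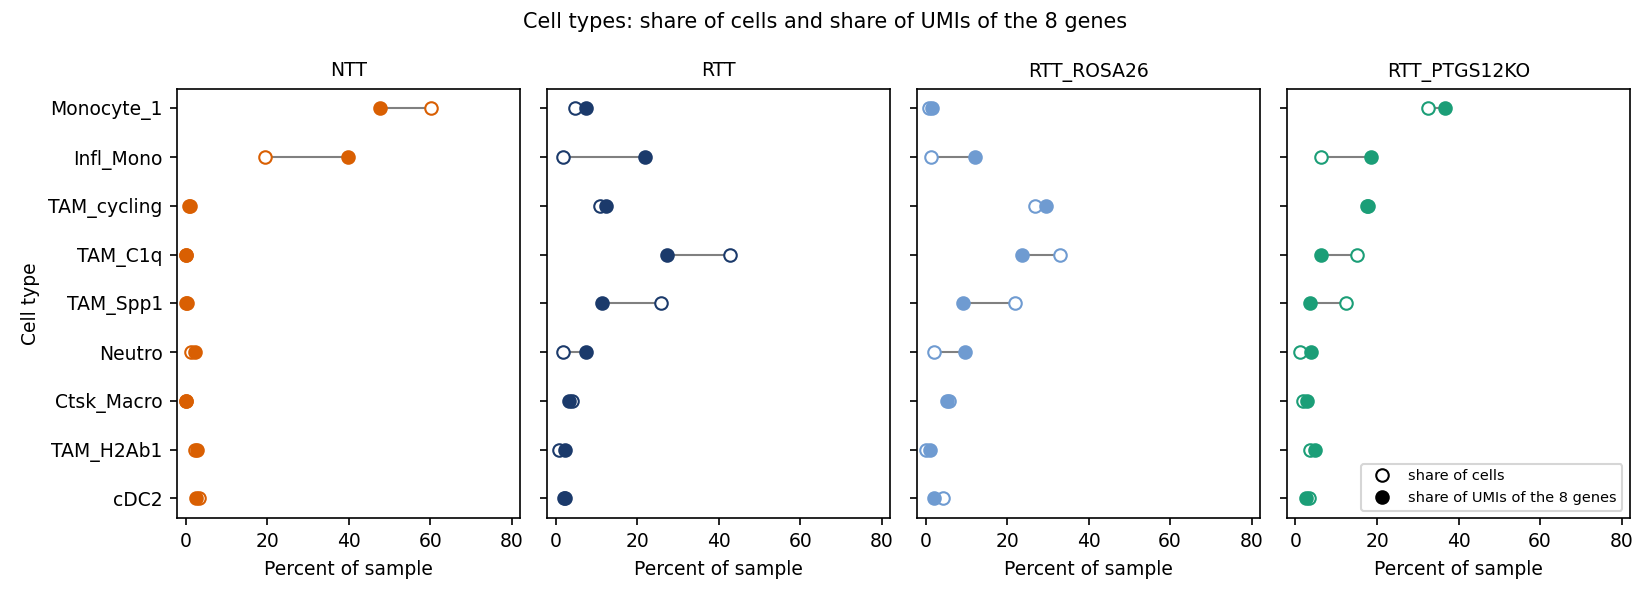
Share of cells (open points) and share of the summed UMIs of the 8 genes (filled points), in percent of each sample, for 9 cell types in 1 panel per sample. Infl_Mono lies to the right of its share of cells in all 4 samples, for example 22.0% of UMIs from 1.73% of cells in RTT, and TAM_C1q and TAM_Spp1 lie to the left of theirs in the 3 resistant samples.

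Levels were ordered over the 42 combinations of cell type and sample that held at least 50 cells. Infl_Mono of NTT was the highest group for the 6 Oas genes, and Infl_Mono of RTT was the highest for Rsad2 and Cmpk2. Rsad2 ran from 2.92 CPM in cDC2s of RTT_ROSA26, through a median of 40.6, to 1164 CPM. Cmpk2 ran from 0.415 CPM in Myofibrobl of RTT_ROSA26, through 7.95, to 222 CPM. Oas1a ran from 0.456 CPM in Myofibrobl of RTT, through 36.2, to 149 CPM, and Oasl1 from 0 through 18.8 to 303 CPM. Few neighbours in these orders were apart in their intervals, namely 9 of 41 steps for Rsad2, 4 for Oasl2, 3 for Oasl1 and Cmpk2, 2 for Oas1a, 1 for Oas1g and Oas3 and 0 for Oas2. Infl_Mono is itself set apart by interferon-stimulated genes, so its place at the top is a description of the cluster and no finding.

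**Figure D2:**
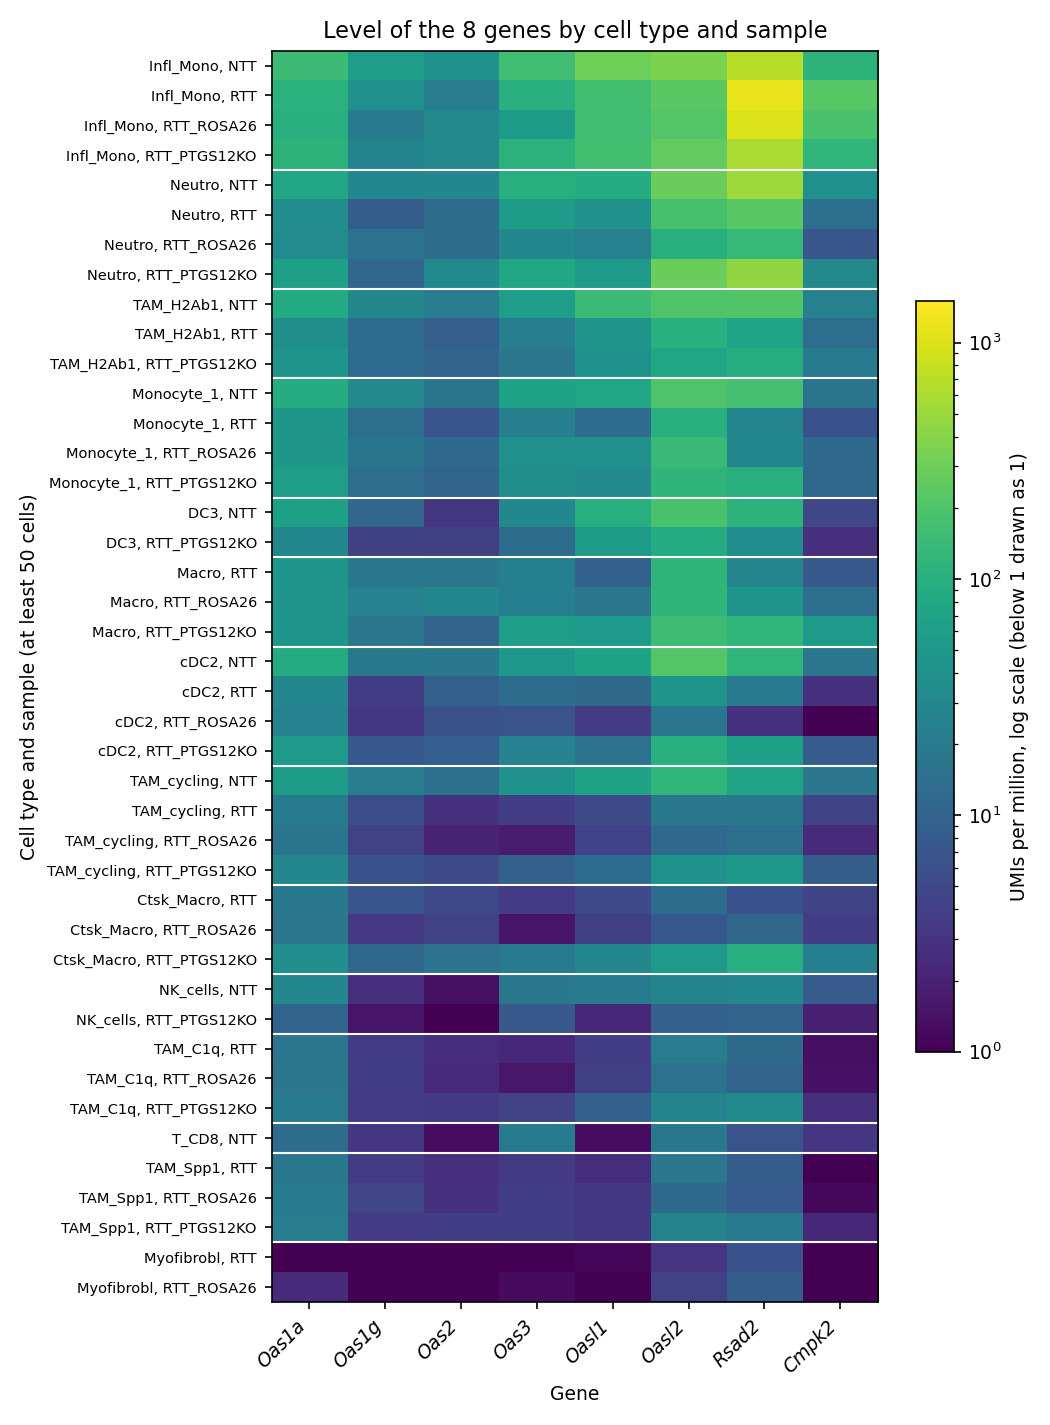
Level of each of the 8 genes (columns) in each cell type and sample with at least 50 cells (rows), in CPM on a log colour scale, with values below 1 drawn as 1. Colours should be compared down a column, and an Infl_Mono row is the brightest in every column, with Rsad2 at 1164 CPM in RTT, while Myofibrobl is darkest for most.

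Macrophages differed widely between samples. Oasl1 stood at 99.9 CPM in NTT, at 4.19 in RTT, at 4.10 in RTT_ROSA26 and at 12.9 in RTT_PTGS12KO. Rsad2 was at 137, 12.8, 12.6 and 44.8 CPM in that order, and Oasl2 at 155, 20.7, 13.1 and 38.2 CPM. Both resistant lines that keep the targeted genes were low and close to each other for Oasl1 and Rsad2, and RTT_PTGS12KO lay between them and NTT. Oas1a stood at 67.4, 18.9, 18.2 and 26.9 CPM, with the knockout only slightly above the other resistant lines.

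In these macrophages NTT exceeded RTT by at least 2-fold for 8 of 8 genes, against 5.0% of genes, with a median log2 ratio of 3.05. Oasl1 was highest at 4.57 [4.37 to 4.78], followed by Oas3 at 3.91 [3.64 to 4.18], and Oas1a was lowest at 1.83 [1.65 to 2.02]. RTT_PTGS12KO exceeded RTT_ROSA26 by at least 2-fold for 6 of 8 (4 of the 5 with at least 10 CPM), against 2.69%, with a median of 1.60. Oas3 was at 2.00 [1.77 to 2.23], and Rsad2 and Cmpk2 were both at 1.83. Oas1a (0.57) and Oas1g (0.50) stayed under 2-fold but had intervals above 0. RTT_ROSA26 against RTT gave 0 of 8 in either direction, against 0.637% higher and 0.878% lower, with a median of -0.07, and only Oas3 (-0.63) and Oasl2 (-0.66) had intervals that leave out 0.

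The macrophages compared were not the same kinds of macrophage. In NTT 192 of the 308 were TAM_H2Ab1, whereas TAM_C1q was the largest type in RTT (3412 of 6734) and in RTT_ROSA26 (2247 of 5993), and TAM_cycling was the largest in RTT_PTGS12KO (1832 of 5207). Without TAM_H2Ab1 the NTT to RTT median over the 5 genes with at least 10 CPM went from 3.41 to 2.44. Within TAM_H2Ab1 alone NTT exceeded RTT by at least 2-fold for 6 of 8 genes, against 3.81%, with Oasl1 at 1.72 [1.23 to 2.25]. Within TAM_cycling it did so for 8 of 8, against 4.85%, with Oasl1 at 3.66 [3.24 to 4.08] and Oas3 at 3.45 [2.92 to 3.97], from only 79 NTT cells. Summed natural killer cell markers in macrophages were at 35.4 CPM in NTT against 11.5 to 15.8 in the others, and summed neutrophil markers at 344 against 176 to 202. Summed macrophage markers were at 17689 in NTT, at 35599 in RTT, at 28252 in RTT_ROSA26 and at 17265 in RTT_PTGS12KO. The part of these markers' cells in the result was not tested.

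The difference with the knockout was uneven over macrophage types and genes. Ctsk_Macro had 7 of 8 genes at least 2-fold higher in RTT_PTGS12KO than in RTT_ROSA26, against 4.67%, with Oas3 at 3.77 [2.92 to 4.74] and Rsad2 at 3.16 [2.83 to 3.50]. TAM_cycling had 6 of 8 (2 of the 3 with at least 10 CPM), against 2.77%, with Oas3 at 2.42 [2.06 to 2.80]. TAM_C1q had 3 of 8 (1 of the 3 with at least 10 CPM), against 1.41%, and these were Rsad2 (1.60), Oas3 (1.36) and Oasl1 (1.22). TAM_Spp1 had 3 of 8 (2 of the 3 with at least 10 CPM), against 1.55%, and these were Rsad2 (1.30), Oasl2 (1.13) and Cmpk2 (1.01). In TAM_Spp1 the log2 ratios of Oas1a, Oas3 and Oasl1 were 0.01 [-0.22 to 0.24], 0.05 [-0.50 to 0.62] and 0.01 [-0.59 to 0.62]. Oas1a was thus at 21.1 and 21.3 CPM in TAM_Spp1 of both lines while Rsad2 went from 8.46 to 20.8 CPM. The type the authors named Macro, which was not counted among the macrophages here, had 4 of 8 genes at least 2-fold higher, against 5.78%, and 1 of 8 lower, against 10.1%. The lower gene was Oas2 at -1.55 [-2.60 to -0.59], and Oas1g was at -0.49 [-1.35 to 0.36]. Whether these types differ from each other was not tested, since there was 1 sample per group.

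Monocytes showed smaller differences than macrophages between NTT and RTT, and Rsad2 and Cmpk2 went the opposite way. The 6 Oas genes were all raised in NTT relative to RTT, with Oas1a at 105 against 62.6 CPM, Oas3 at 89.8 against 43.2, Oasl1 at 126 against 52.4 and Oasl2 at 235 against 138. Rsad2 instead stood at 285 CPM in NTT, at 323 in RTT, at 598 in RTT_ROSA26 and at 159 in RTT_PTGS12KO, and Cmpk2 at 39.0, 62.4, 111 and 25.0. In monocytes Rsad2 and Cmpk2 were therefore lowest in the knockout and highest in RTT_ROSA26, whereas in macrophages both were highest in NTT and low in RTT and RTT_ROSA26 alike.

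At least 2-fold differences between NTT and RTT monocytes were reached by 3 of 8 genes, all higher in NTT, against 1.8% of 6438 genes, and the median was 0.83. They were Oasl1 at 1.27 [1.09 to 1.45], Oas2 at 1.07 and Oas3 at 1.06, whereas Rsad2 was at -0.18 [-0.26 to -0.11] and Cmpk2 at -0.68 [-0.85 to -0.50]. The Rsad2 ratio turned to 0.27 in load 2 alone and to 0.17 with each cell weighted equally. RTT_PTGS12KO was at least 2-fold below RTT_ROSA26 for 3 of 8, against 1.8%, with a median of -0.60. They were Cmpk2 at -2.15 [-2.43 to -1.85], Rsad2 at -1.91 [-2.03 to -1.79] and Oasl1 at -1.14 [-1.42 to -0.85]. Oas1a, Oas1g and Oas3 had intervals that include 0. RTT_ROSA26 against RTT had 2 of 8 at least 2-fold higher, against 1.6%, namely Oas2 (1.09) and Oasl1 (1.04). The Oas2 value rests on 23 UMIs in RTT_ROSA26 and turned to -0.36 in load 2 alone. In the same comparison the Rsad2 ratio of 0.89 [0.75 to 1.02] was larger in size than that of NTT against RTT. RTT_ROSA26 had only 144 monocytes, with 599 Rsad2 UMIs. Of these UMIs, 587 were in Infl_Mono, where 11 cells held 88.4% of them. Its Rsad2 values thus rest largely on few cells, which the counting intervals do not show.

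**Figure D3:**
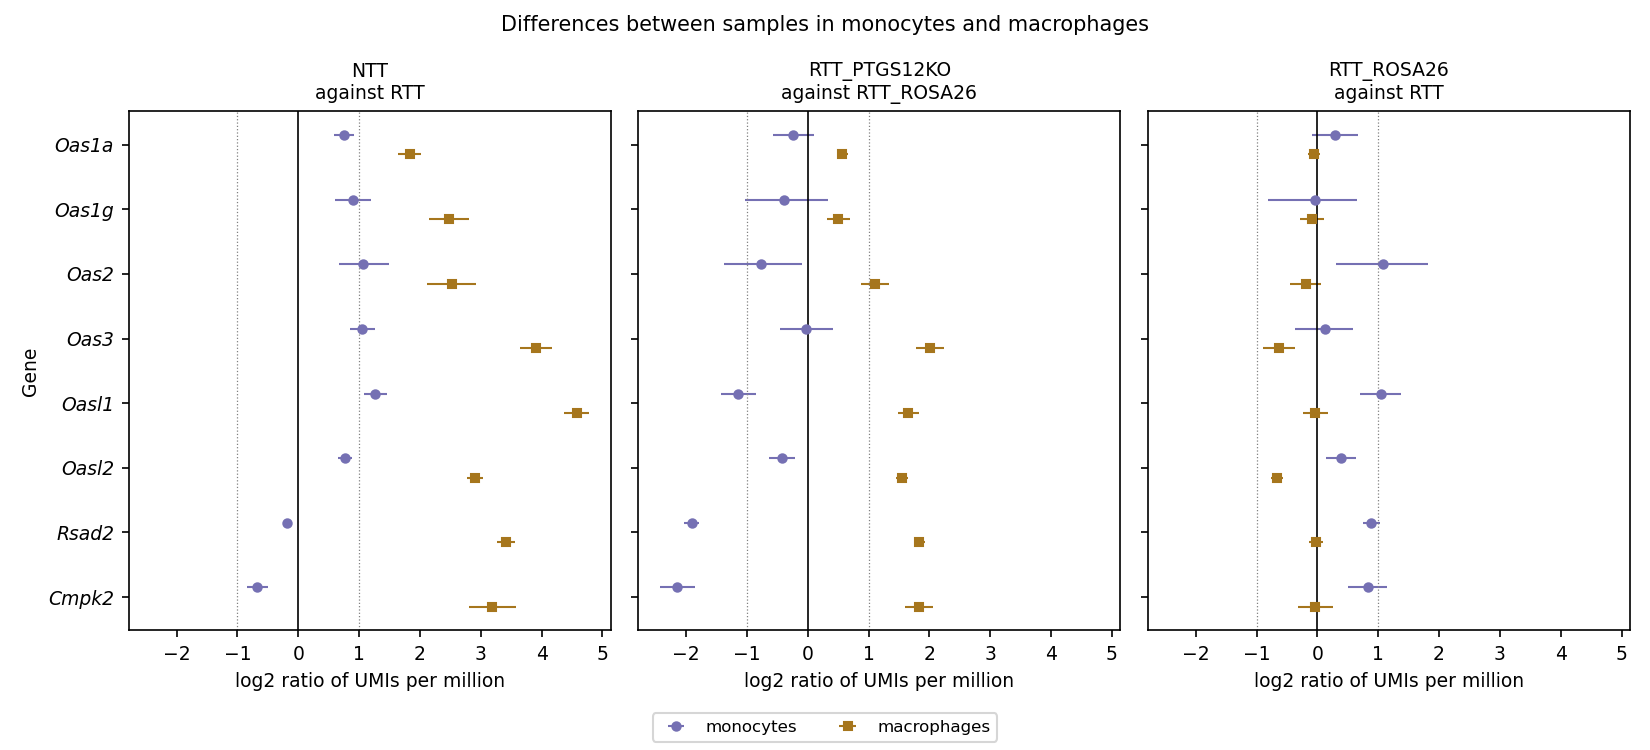
Log2 ratio of CPM for each of the 8 genes in monocytes (circles) and macrophages (squares), in 1 panel per comparison, with 95% counting intervals as lines and dotted lines at 2-fold. In the middle panel Rsad2 and Cmpk2 lie at -1.91 and -2.15 in monocytes and at 1.83 and 1.83 in macrophages, and in the right panel the macrophage points lie between -0.66 and -0.03.

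The monocytes of the samples also differed in make-up. Infl_Mono was 24.4% of NTT monocytes, 26.4% of those of RTT, 59.7% of those of RTT_ROSA26 (86 of 144) and 15.8% of those of RTT_PTGS12KO. In that order it held 54.7%, 93.6%, 98.0% and 44.5% of the monocytes' Rsad2 UMIs. For Oas1a the corresponding shares of UMIs were 32.5%, 44.0%, 74.0% and 20.7%. Without Infl_Mono, Rsad2 in monocytes turned to a log2 ratio of 2.58 in the first comparison (NTT against RTT) and of 1.84 in the second (the knockout), and Cmpk2 turned to 1.41 in the first. Cells were also placed not by the authors' names but by the marker list, monocyte or macrophage, with the larger share of genes detected. The monocyte medians then became 2.45 for NTT against RTT and 1.59 for the knockout, so the latter reversed. The monocytes so placed were 3405 of the authors' monocytes and 21 of their macrophages in NTT. Such counts were 233 and 420 in RTT, 96 and 405 in RTT_ROSA26, and 2176 and 240 in RTT_PTGS12KO. In RTT and RTT_ROSA26 most were thus the authors' macrophages, so other cells were compared. Summed macrophage markers in the authors' monocytes were at 5318 CPM in NTT, at 15658 in RTT, at 9642 in RTT_ROSA26 and at 6440 in RTT_PTGS12KO, and the part of such cells in the result was not tested.

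Within Monocyte_1, the largest monocyte cluster of NTT, RTT and RTT_PTGS12KO, Rsad2 followed a different order. It stood at 168 CPM in NTT, at 28.1 in RTT, at 29.1 in RTT_ROSA26 and at 101 in RTT_PTGS12KO, so that NTT was highest and the knockout next, as in macrophages, with RTT and RTT_ROSA26 close together. NTT exceeded RTT by at least 2-fold for 6 of 8 genes, against 2.37%, with Rsad2 at 2.58 [2.30 to 2.88] and Oasl1 at 2.51 [2.10 to 2.96]. For RTT_PTGS12KO against RTT_ROSA26 only Rsad2 reached 2-fold higher, against 3.61% of genes, at 1.79 [0.98 to 2.74], and the other 7 had intervals that include 0, with 54 cells in RTT_ROSA26. Infl_Mono exceeded Monocyte_1 in Rsad2 by 4.05-fold in NTT, 41.4-fold in RTT, 35.1-fold in RTT_ROSA26 and 5.84-fold in RTT_PTGS12KO. For Oas1a the same folds were 1.62, 2.24, 2.04 and 1.91. The 35.1-fold rests on 12 Rsad2 UMIs in Monocyte_1 of RTT_ROSA26, with a log2 value of 5.13 [4.32 to 6.09]. Infl_Mono is set apart by interferon-stimulated genes, so all these folds are a description.

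Within Infl_Mono itself the Oas genes and the Rsad2-Cmpk2 pair went opposite ways between NTT and RTT. Rsad2 stood at 680 CPM in NTT, at 1164 in RTT, at 1021 in RTT_ROSA26 and at 588 in RTT_PTGS12KO, and Cmpk2 at 114, 222, 183 and 124. Oasl1 stood at 303, 165, 160 and 162 CPM, and Oas1a at 149, 106, 99.1 and 112. The pair was thus higher in RTT and RTT_ROSA26 than in the other samples, while the Oas genes were highest in NTT. The NTT to RTT log2 ratio was -0.78 [-0.86 to -0.70] for Rsad2 and -0.97 [-1.15 to -0.78] for Cmpk2, and 0.49 to 0.92 for the 6 Oas genes. No gene reached 2-fold, against 3.18% of genes higher and 4.01% lower. For RTT_PTGS12KO against RTT_ROSA26, 1 of 8 was at least 2-fold higher, against 4.09%, which was Oas3 at 1.02 [0.50 to 1.59], while Rsad2 was at -0.80 and Cmpk2 at -0.55. The values rest on 138 cells in RTT and 86 in RTT_ROSA26. In the 3 loads taken alone the NTT to RTT ratio of Rsad2 was -0.60, -0.34 and -1.23 and that of Cmpk2 -0.77, -0.38 and -1.52.

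**Figure D4:**
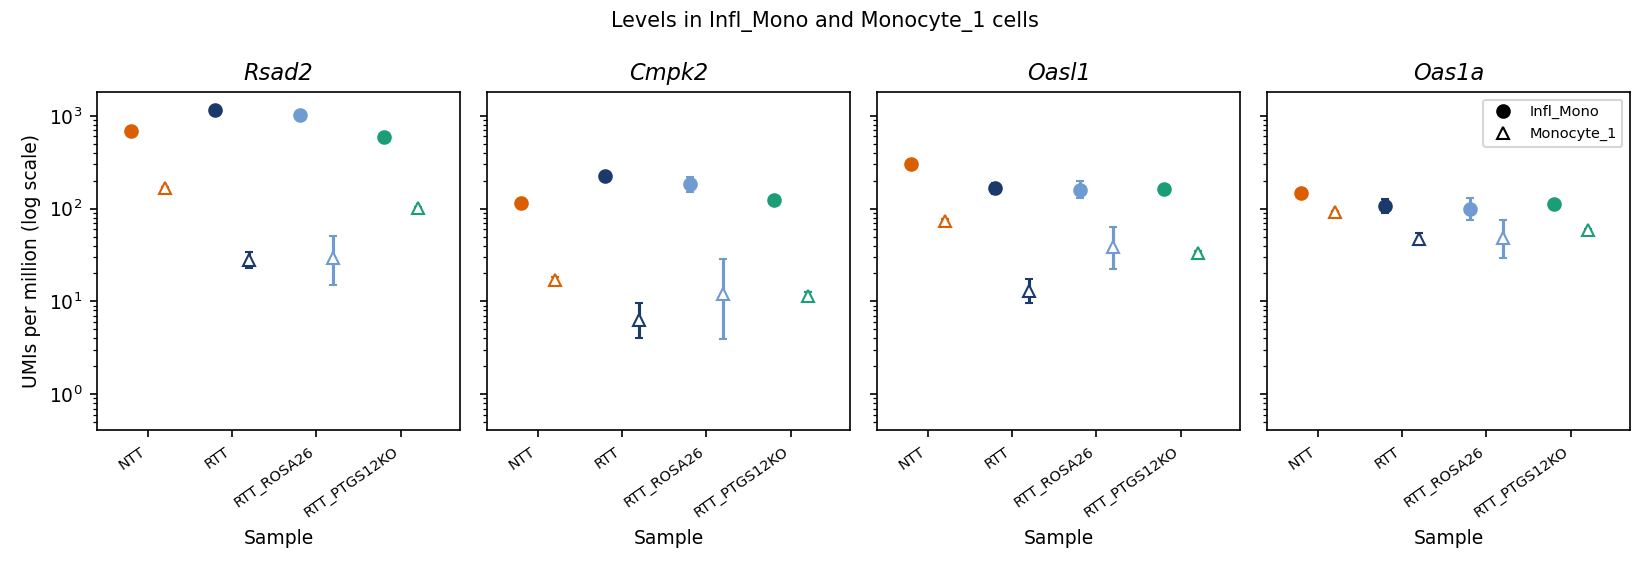
Levels of Rsad2, Cmpk2, Oasl1 and Oas1a in CPM (log scale) in Infl_Mono cells (filled circles) and Monocyte_1 cells (open triangles) of the 4 samples, with 95% counting intervals as bars. Rsad2 in RTT lies at 1164 CPM in Infl_Mono and 28.1 in Monocyte_1, whereas Oas1a lies at 106 and 47.4.

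Rsad2 UMIs were concentrated in few cells. In Infl_Mono a Rsad2 UMI was found in 70.0% of cells from NTT, 50.7% from RTT, 30.2% from RTT_ROSA26 and 45.8% from RTT_PTGS12KO, at median depths of 6787, 7452, 5961 and 7427 UMIs. Fewer cells were positive in RTT than in NTT although the summed level was higher. Cells with at least 10 Rsad2 UMIs made up 14.9%, 24.6%, 12.8% and 11.2% in that order, and they held 62.0%, 90.7%, 88.4% and 76.4% of the Rsad2 UMIs. The highest single cell held 156 UMIs, in RTT. No Infl_Mono cell reached 10 UMIs of Oas1a, and the top 10% of cells by Oas1a held 34.8% to 45.6% of its UMIs, against 51.0% to 84.5% for Rsad2. Because UMIs cluster in cells in this way, counting intervals understate the spread of Rsad2. Without the 10% of Infl_Mono cells richest in each gene, the NTT to RTT ratio was -0.50 for Rsad2 and -0.82 for Cmpk2.

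The same concentration was present in macrophages. A Rsad2 UMI was found in 48.7% of NTT macrophages, 5.72% in RTT, 5.67% in RTT_ROSA26 and 16.1% in RTT_PTGS12KO. Cells with at least 10 Rsad2 UMIs numbered 13, 22, 25 and 100 and held 40.9%, 45.7%, 54.3% and 54.7% of the Rsad2 UMIs, with up to 203 in 1 cell of RTT_ROSA26. Oas1a was spread more thinly, with a UMI in 51.6%, 21.0%, 23.1% and 31.4% of macrophages, and 59.9% of its RTT UMIs were the only one in their cell. For comparison, 43 mast cells held 0 UMIs of Rsad2 and Oas1a and 10 UMIs of the 8 genes together, 9 of them Oasl2, and a count of 0 there allows up to 0.0698 UMIs per cell. In the 249 Myofibrobl cells of RTT, Oas1a was found in 1.61% and Rsad2 in 5.22%, at a median depth of 33469 UMIs, and 3 cells held 73.2% of the latter's UMIs. RTT macrophages had a lower median depth, 12915 UMIs, so these shares are not compared. As levels, Rsad2 was at 12.8 CPM in RTT macrophages and 6.39 in Myofibrobl of RTT, and Oas1a at 18.9 and 0.456.

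Cells were also compared at equal depth, after each had been thinned to 3000 UMIs. Shallower cells were left out, namely 162, 10, 6 and 65 monocytes and 2, 26, 38 and 12 macrophages in the order NTT, RTT, RTT_ROSA26 and RTT_PTGS12KO. At least 1 UMI of the 8 genes was then found in 82.9% of NTT monocytes, 56.1% in RTT, 58.7% in RTT_ROSA26 and 61.9% in RTT_PTGS12KO. In macrophages the shares were 75.5%, 15.01%, 12.3% and 25.7%. The mean number per thinned monocyte was 2.89, 1.86, 2.70 and 1.61, and per thinned macrophage 1.78, 0.200, 0.163 and 0.418. For monocytes of RTT_PTGS12KO and RTT_ROSA26 the share of positive cells was 61.9% against 58.7% at 3000 UMIs and 73.6% against 77.7% at 5000 UMIs, with overlapping counting intervals both times, so no order can be read from it. The share with at least 3 UMIs was 19.4% [18.2 to 20.7] against 28.3% [20.9 to 36.5], and the share with at least 6 was 4.91% against 11.6%.

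**Figure D5:**
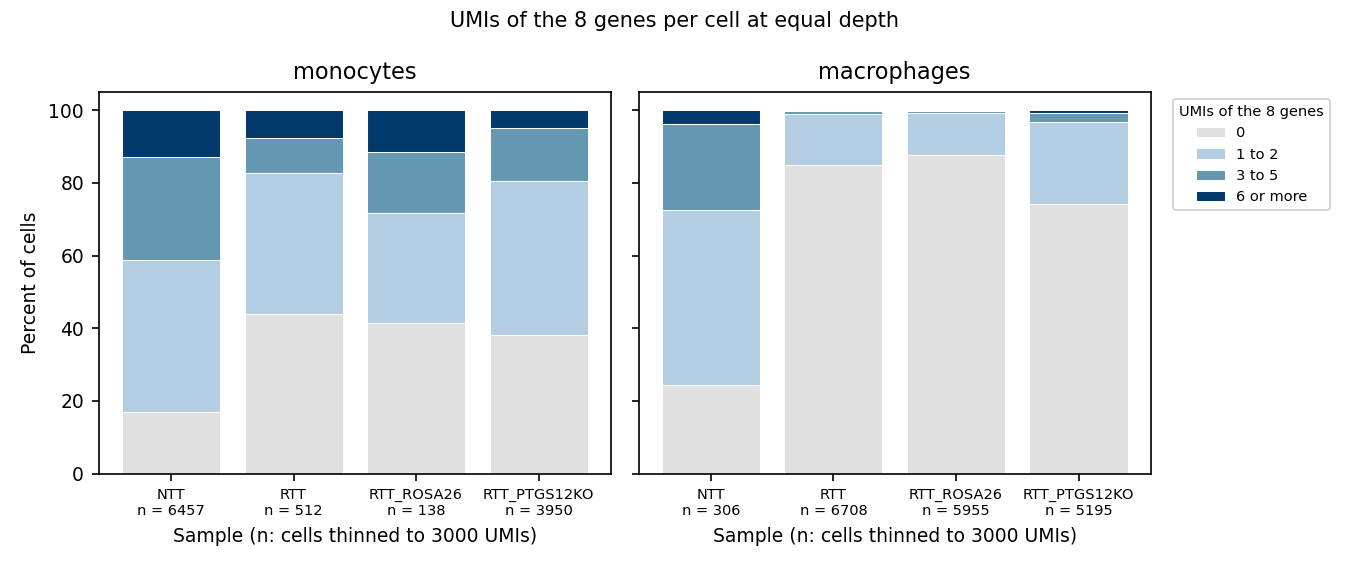
Percent of monocytes and macrophages with 0, 1 to 2, 3 to 5 or at least 6 UMIs of the 8 genes summed, in each sample after thinning cells to 3000 UMIs and leaving out shallower ones. The grey part, cells with 0, is 24.5% of NTT macrophages and at least 74.3% of macrophages in the 3 resistant samples.

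For the chromosomal neighbours Rsad2 and Cmpk2, a Cmpk2 UMI was more frequent in monocytes and macrophages with a Rsad2 UMI than in those without, though in most samples the larger part of Rsad2-positive cells had none. In thinned monocytes of RTT a Cmpk2 UMI was present in 42.7% of the 82 cells with Rsad2 and in 2.09% of the 430 without. In RTT_ROSA26 the shares were 58.3% of 24 cells and 1.75%, in NTT 15.1% and 5.08%, and in RTT_PTGS12KO 15.9% and 2.53%. In macrophages the shares were 8.43% and 2.24% in NTT, 8.39% and 0.320% in RTT, 5.41% and 0.359% in RTT_ROSA26 and 9.97% and 0.987% in RTT_PTGS12KO. Within Infl_Mono the shares were 30.5% and 12.1% in NTT and 37.6% and 5.67% in RTT_PTGS12KO, whereas within Monocyte_1 they were 5.09% and 3.69% in NTT, with overlapping intervals, and 7.28% and 2.08% in RTT_PTGS12KO. In neutrophils they ran from 3.13% and 2.70% in RTT_ROSA26 to 22.0% and 2.13% in NTT. The shares for Oas1a in monocytes lay nearer each other, at 27.8% of NTT monocytes with Rsad2 and 25.3% of those without, 30.5% and 13.7% in RTT, 37.5% and 14.0% in RTT_ROSA26, and 21.7% and 17.99% in RTT_PTGS12KO. These cells share a sample, so the shares are a description. Oas1a was the only other gene looked at in this way. Over the 42 groups its level had the lowest Pearson correlation with that of Rsad2 (0.785), whereas Oasl1 was at 0.911 and Cmpk2 at 0.918. Whether the pattern is particular to Cmpk2 was not tested.

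Neutrophils, few in every sample (106 to 146 cells), had high levels of several of these genes. Rsad2 stood at 507 CPM in NTT, at 233 in RTT, at 134 in RTT_ROSA26 and at 448 in RTT_PTGS12KO, and Oasl2 at 278, 179, 101 and 283. NTT and RTT_PTGS12KO were near each other and above both other samples for these genes. NTT exceeded RTT by at least 2-fold for 6 of 8, against 5.31%, and RTT_PTGS12KO exceeded RTT_ROSA26 for 6 of 8, against 4.55%, with Cmpk2 at 2.16 [1.31 to 3.08] and Rsad2 at 1.74 [1.54 to 1.94]. Oas1g was at -0.50 [-1.45 to 0.38] in the latter. RTT_ROSA26 lay below RTT for Rsad2 (-0.80) and Oasl2 (-0.82) too, and Cmpk2 was 1 of 8 at least 2-fold lower, against 2.32%.

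Conventional type 2 dendritic cells (cDC2s) of RTT_ROSA26 had the lowest Rsad2 value of the 42 groups, with an interval of 1.26 to 5.75 CPM. That interval overlapped the one of Ctsk_Macro of RTT (4.48 to 8.69), the next group, so these groups are not ordered. Rsad2 stood at 124 CPM in NTT, at 19.7 in RTT, at 2.92 in RTT_ROSA26 and at 62.9 in RTT_PTGS12KO, and Oasl2 at 214, 44.2, 17.9 and 104. NTT exceeded RTT by at least 2-fold for 7 of 8 genes, against 5.05%, and RTT_PTGS12KO exceeded RTT_ROSA26 for 7 of 8 (4 of the 4 with at least 10 CPM), against 4.78%, with Rsad2 at 4.43 [3.43 to 5.66]. RTT_ROSA26 was itself at least 2-fold below RTT for 5 of 8 (2 of the 3 with at least 10 CPM), against 3.88%, so RTT_ROSA26 lay below both other resistant samples there.

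The 8 genes followed one another over the 42 groups, as Pearson correlations of log2(CPM + 1), which are descriptions over points that share libraries and depth. The correlation of a gene with the mean of the other 7 ran from 0.897 for Cmpk2 to 0.951 for Oasl2. The closest pair was Oas3 and Oasl2 (0.938), Rsad2 and Cmpk2 were at 0.918, and the least alike were Oas1a with Cmpk2 (0.783) and with Rsad2 (0.785). Among 7088 other genes, the 10 most like the mean of the 8 were Rtp4 (0.966), Irf7 (0.961), Xaf1 (0.959), Rnf213 (0.958), Slfn5 (0.953), Ifih1 (0.943), Ifi204 (0.941), Ifit2 (0.938), Ifi211 (0.938) and Phf11d (0.937). Irf7 is a transcription factor that drives interferon genes, and Ifih1 encodes the RNA sensor MDA5.

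Other genes of the pathway moved unevenly over all cells. Among ISGF3 genes, Stat2 was at 2.25 for NTT against RTT and at 1.72 for the knockout, and Irf9 at 0.87 and 0.58. Pde12, which degrades oligoadenylates, stayed under 2-fold in every comparison over all cells, monocytes and macrophages. Of 9 nucleic acid sensing genes, 7 were at least 2-fold higher in NTT than in RTT (6.72% of all genes), among them Irf7 (3.96), the sensor gene Zbp1 (3.02) and Ifih1 (2.01), and 3 were at least 2-fold higher in the knockout than in RTT_ROSA26 (4.2% of all genes), with Zbp1 at 2.69 and Irf7 at 2.12.

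A list of 12 genes known for their response to interferon gamma was compared as well. NTT exceeded RTT, and the knockout exceeded RTT_ROSA26, by at least 2-fold for 12 of 12, against 6.72% and 4.2% of all genes, with medians of 2.92 and 3.40. RTT_ROSA26 was below RTT by at least 2-fold for 9 of 12, against 1.26%, with a median of -1.35. In macrophages its median for the knockout was 3.15, beside 1.60 for the 8 genes, and in monocytes it was 0.62, beside -0.60. Of the other Oas1 paralogs, 5 were examined, and Oas1b was not analysed here. Oas1c stood at 7.8 CPM in NTT and 2.0 to 2.59 in the resistant samples, Oas1d and Oas1f had 0 UMIs, and Oas1e and Oas1h had at most 2 and 1 in any sample.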

How the data were processed

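The UMI counts were deposited by the authors as a genes-by-cells matrix from Cell Ranger on an mm10 reference, beside a table that assigns each cell to a sample and a cell type. Per the study's methods, a cell needed more than 1000 genes, less than 15% mitochondrial and less than 40% ribosomal reads, and types were named in Seurat 4.3.0 after Harmony integration. Doublets between samples are removed by the sample oligos, and no further caller was run. UMIs were summed per sample and cell type and divided by total UMIs (CPM). Intervals were exact Poisson for levels, Clopper-Pearson for shares and conditional binomial for ratios, at 95%. A sum of 0 entered a ratio as 3 UMIs. Genes were called at 2-fold. List medians were taken over all 8 genes and, in the alternatives, over those with a mean of at least 10 CPM (in single cell types, a mean over the samples compared). Python 3.11.15, numpy 2.4.6, scipy 1.17.1, pandas 2.3.3, matplotlib 3.10.9, Biopython 1.88 and edgeR 4.0.16 (for TMM factors) in R 4.3.3 were used, and the steps were tested on simulated data. The 8 genes and all lists were chosen with earlier results of these data known. Genes outside the 8 were named as the 10 most alike or as members of the pathway lists. Some genes of the pathway lists are not reported here.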

Additional observations from a re-analysis of the deposited data

Results flagged for a closer look

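Several genes had ratios of opposite sign in monocytes and macrophages of the same pair of samples. With 1 sample per group the difference between the 2 classes was not tested in any case, and its cause was not tested.

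For NTT against RTT, Rsad2 was at -0.18 in monocytes and 3.41 in macrophages, and Cmpk2 at -0.68 and 3.19. For RTT_PTGS12KO against RTT_ROSA26, the same order of classes gave -0.77 and 1.10 for Oas2, -1.14 and 1.65 for Oasl1, -0.43 and 1.55 for Oasl2, -1.91 and 1.83 for Rsad2, and -2.15 and 1.83 for Cmpk2. The Oas2 value in monocytes rests on 23 UMIs in RTT_ROSA26 and was 0.059 in load 1 alone and 0.85 in load 2 alone. The Rsad2 value for NTT against RTT was 0.27 in load 2 alone. For RTT_ROSA26 against RTT, Oasl2 was at 0.39 and -0.66. Infl_Mono held 54.7%, 93.6%, 98.0% and 44.5% of the monocytes' Rsad2 UMIs in NTT, RTT, RTT_ROSA26 and RTT_PTGS12KO. With cells placed by their detected markers, all of these monocyte values changed sign. Rsad2 and Cmpk2 went to 2.75 and 2.42 in NTT against RTT. With the knockout, Oas2, Oasl1, Oasl2, Rsad2 and Cmpk2 went to 1.25, 1.76, 1.79, 1.96 and 1.09. Oasl2 went to -0.40 in RTT_ROSA26 against RTT. Other cells were compared in this way, since many monocytes so placed were the authors' macrophages. In RTT these were 420 beside 233 of the authors' monocytes, and in RTT_ROSA26 405 beside 96. Without Infl_Mono, Rsad2 went to 2.58 and 1.84 in the first and second comparison, and Cmpk2 to 1.41 in the first.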

How the results depend on the processing

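No paired analysis was possible because there is only 1 sample in a group. Values below are medians of log2 ratios over genes with at least 10 CPM, with A standing for NTT against RTT, B for RTT_PTGS12KO against RTT_ROSA26 and C for RTT_ROSA26 against RTT. Depth limits groups of few cells, such as the 144 monocytes of RTT_ROSA26, 54 of them Monocyte_1 and 86 Infl_Mono, and the 308 macrophages of NTT. Moved means outside the counting interval, and the cause was not tested.

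In all cells A was 2.87, and became 2.45 with CPM + 10, 3.02 with TMM factors, 3.13, 3.02 and 2.73 in loads 1, 2 and 3 alone, 2.77 with cells weighted equally, 1.00 with types weighted equally and 2.75 without Infl_Mono. B was 1.98, and became 1.13 with CPM + 10, 2.11 with TMM, 1.71 and 2.22 in loads 1 and 2, and 0.42 with types equal. C was -0.48, and became -0.16 with CPM + 10, -0.056 and -0.66 in loads 1 and 2, -0.23 with types equal and -0.074 without Infl_Mono.

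In monocytes A (0.83) became 1.36 without Infl_Mono and 2.45 with cells placed by markers, B (-0.60) became -0.13 and a reversed 1.59, and C (0.61) a reversed -0.021 by markers. Monocytes placed by markers were mostly the authors' macrophages in RTT and RTT_ROSA26. Macrophages placed by markers were mostly the authors' monocytes in NTT. In macrophages A (3.41) became 2.42 with CPM + 10, 3.05 with no minimum, 3.62 without the top 5% of cells by UMIs, 3.60 and 3.25 in loads 1 and 3, 3.73 with cells equal, 3.26 by markers and 2.44 without TAM_H2Ab1. B (1.65) became 1.48 with CPM + 1, 0.70 with CPM + 10, 1.48 in load 1, 1.92 by markers and 1.46 without TAM_H2Ab1. C (-0.06) became -0.28 and -0.53 in loads 2 and 3 and -0.58 by markers.

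The share of thinned cells with a UMI of the 8 genes was recomputed at 2000 UMIs, at 5000, unthinned, and for at least 3 UMIs. NTT monocytes gave 72.4%, 92.6%, 95.1% and 41.3%, RTT monocytes 46.6%, 68.0%, 77.4% and 17.2%, and RTT_PTGS12KO monocytes 50.4%, 73.6%, 87.2% and 19.4%. RTT_ROSA26 monocytes gave 77.7% at 5000, 75.7% unthinned and 28.3% for at least 3. Macrophages gave 56.5%, 84.6%, 94.8% and 27.5% in NTT, 10.4%, 21.5%, 42.4% and 0.924% in RTT, 9.57%, 18.9%, 41.7% and 0.688% in RTT_ROSA26, and 18.7%, 35.3%, 62.3% and 3.20% in RTT_PTGS12KO.

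Single genes reversed as follows. With types equal, Cmpk2 in all cells went to -0.20 (A) and Oasl1 to 0.0016 (C), and in load 1 Rsad2 went to 0.058 and Cmpk2 to 0.40 (C). In monocytes A, Rsad2 went to 0.27 in load 2, 0.17 with cells equal, 2.58 without Infl_Mono and 2.75 by markers, and Cmpk2 to 1.41 and 2.42 in the latter 2. In monocytes B, Oas2 went to 0.059 and 0.85 in loads 1 and 2 and 1.25 by markers, Rsad2 to 1.84 without Infl_Mono and 1.96 by markers, and by markers Oasl1 to 1.76, Oasl2 to 1.79 and Cmpk2 to 1.09. In monocytes C, Oas2 went to -0.36 in load 2, Oasl2 to -0.40 and Rsad2 to -0.25 by markers, and Rsad2 to -0.00012 without Infl_Mono.

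For Infl_Mono, alternatives chosen after seeing the data took each load alone, which gave Rsad2 -0.60, -0.34 and -1.23 and Cmpk2 -0.77, -0.38 and -1.52 (A), or left out the 10% of cells richest in the gene, which gave Rsad2 -0.50.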
